A study of Mus musculus with 4 samples.

Results

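The transcripts of 10 condensin and cohesin subunits were followed in single cells of mouse medulloblastoma. The members were the rows named Smc2, Smc4, Ncapd2, Ncapg and Ncaph for condensin, and Smc1a, Smc3, Rad21, Stag1 and Stag2 for cohesin. All 10 were found in every one of the 4 expression tables, among 13149 genes listed in all 4 and 33219 listed in at least 1. The rule used gene names only, but the members were chosen with earlier results of these data known.

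Each table held cells of 1 untreated end-point tumour of the Sonic hedgehog (SHH) subgroup, and the tumours arose in Ptch1+/- mice that had been irradiated at birth. The cells had been frozen viably, thawed, sorted as live by propidium iodide or DAPI and profiled on the 10x Genomics platform. Ptch1 encodes the hedgehog receptor that holds the pathway off, every tumour carried the same genotype, and the labels name no control tissue, so cells were compared within tumours. The labels number the tumours and do not say separately that each came from its own mouse, so p-values measure the spread between these 4 samples. The tumours gave 798, 2589, 1229 and 1893 cells, with 19446245, 23439893, 10458431 and 18242667 unique molecular identifiers (UMIs, each standing for 1 captured transcript). A level below is in CPM, the summed UMIs of a gene in a group of cells scaled to a total of 1000000 UMIs of those cells.

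Condensin and cohesin are ring-shaped complexes built on pairs of SMC (structural maintenance of chromosomes) ATPases that embrace DNA. Cohesin holds sister chromatids together from replication until anaphase and also folds interphase chromatin into loops, so cells outside the cycle need it too. Condensin compacts chromosomes for mitosis. SHH medulloblastoma arises from granule neuron progenitors of the cerebellum, cells that divide many times before they leave the cycle and become neurons.

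Smc2 and Smc4 are the ATPase pair of condensin, and Ncaph, Ncapd2 and Ncapg are the kleisin and the repeat-protein subunits that make up condensin I. Smc1a and Smc3 are the ATPase pair of cohesin, Rad21 is its kleisin and the part that separase cuts, and Stag1 and Stag2 are alternative subunits of which each ring holds 1. By RefSeq coordinates on GRCm38.p6 (mm10), Smc2 lies on chromosome 4 (52439221 to 52488365), Smc4 on chromosome 3 (69004738 to 69034623) and Ncaph on chromosome 2 (127103809 to 127133954). Ncapd2 lies on chromosome 6 (125168007 to 125192100) and Ncapg on chromosome 5 (45669891 to 45700547). Of the cohesin genes, Smc1a (152016428 to 152061973) and Stag2 (42149297 to 42277186) lie on chromosome X. Smc3 lies on chromosome 19 (53600396 to 53645831), Rad21 on chromosome 15 (51962604 to 51993538) and Stag1 on chromosome 9 (100597709 to 100958544).

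Promoter sequence was at hand in the RefSeq promoter table for 7 members. Those of Smc2, Ncapd2, Ncapg and Ncaph are printed because these 4 genes were all called higher in cells called G2/M than in cells called S, and that of Smc3 because it was not. Each runs from 250 bases before to 50 bases after the listed transcription start, 5′ to 3′ on the gene's own strand, with matches to 3 short motifs in capitals on either strand. The motifs were the CHR element (TTTGAA, or TTCAAA on the other strand), the CCAAT box (CCAAT or ATTGG) and an E2F site (TTCCCGC or GCGGGAA). CHR and CCAAT elements are known from promoters of genes expressed in G2 and mitosis, and E2F sites from genes expressed at the start of S phase.
Smc2, chr4:52438971-52439270, plus strand: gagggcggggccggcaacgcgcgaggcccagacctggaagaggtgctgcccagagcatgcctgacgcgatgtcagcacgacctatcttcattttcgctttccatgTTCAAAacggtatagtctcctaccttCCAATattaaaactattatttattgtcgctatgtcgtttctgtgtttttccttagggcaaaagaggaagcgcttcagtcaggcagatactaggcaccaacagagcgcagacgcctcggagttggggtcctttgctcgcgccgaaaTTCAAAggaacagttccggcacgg
Ncapd2, chr6:125191537-125191836, minus strand: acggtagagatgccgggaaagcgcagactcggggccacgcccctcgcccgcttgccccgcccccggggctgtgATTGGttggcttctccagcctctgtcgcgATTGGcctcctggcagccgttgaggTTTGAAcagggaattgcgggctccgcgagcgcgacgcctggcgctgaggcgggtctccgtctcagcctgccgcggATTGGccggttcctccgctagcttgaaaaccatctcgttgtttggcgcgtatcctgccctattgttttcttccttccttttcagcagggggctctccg
Ncapg, chr5:45669675-45669974, plus strand: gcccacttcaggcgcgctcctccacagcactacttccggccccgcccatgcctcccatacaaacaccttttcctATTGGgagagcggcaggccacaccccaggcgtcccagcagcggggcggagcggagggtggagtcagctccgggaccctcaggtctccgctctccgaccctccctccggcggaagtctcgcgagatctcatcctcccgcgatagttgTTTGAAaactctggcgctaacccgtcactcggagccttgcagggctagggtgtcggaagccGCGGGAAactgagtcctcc
Ncaph, chr2:127133905-127134204, minus strand: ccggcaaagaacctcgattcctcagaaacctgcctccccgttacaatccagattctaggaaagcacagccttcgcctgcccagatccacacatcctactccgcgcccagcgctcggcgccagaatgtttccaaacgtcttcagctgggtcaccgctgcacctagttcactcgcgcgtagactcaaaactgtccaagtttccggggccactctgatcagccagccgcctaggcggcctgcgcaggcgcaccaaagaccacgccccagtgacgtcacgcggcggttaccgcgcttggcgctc
Smc3, chr19:53600146-53600445, plus strand: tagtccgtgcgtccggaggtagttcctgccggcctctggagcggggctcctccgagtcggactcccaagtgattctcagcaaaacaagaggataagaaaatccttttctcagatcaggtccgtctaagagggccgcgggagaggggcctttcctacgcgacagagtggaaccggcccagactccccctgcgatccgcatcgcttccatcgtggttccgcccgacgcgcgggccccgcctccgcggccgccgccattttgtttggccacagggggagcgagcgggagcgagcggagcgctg
The Smc2 window held 2 CHR matches and 1 CCAAT box, the Ncapd2 window 1 CHR match and 3 CCAAT boxes, and the Ncapg window 1 of each plus 1 E2F site. None of the 3 motifs was found in the Ncaph window, although Ncaph was also called higher, nor in the Smc3 window. Smc1a and Stag1 each had 1 CCAAT box and 1 E2F site and no CHR match. A CHR match was present in 17.9% of 32851 mouse promoter windows of this length, a CCAAT box in 37.4%, an E2F site in 4.6%, and both CHR and CCAAT in 6.95%. A match describes letters only, and the annotated Ncapd2, Ncapg and Stag1 genes also begin upstream of the start used here.

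Cells were grouped into classes by clustering on other genes and named from listed markers. Progenitor-like cells, named from granule progenitor markers such as Atoh1, Barhl1 and Gli1, numbered 549, 1705, 846 and 261 in tumours 1 to 4. The name rests on progenitor markers scored against immune cells. All 13 progenitor markers had UMIs in these cells, but so had all 13 myeloid and all 10 astrocyte markers. The summed level of the progenitor markers ran from 1779 CPM in tumour 4 to 7206 CPM in tumour 3 among cells called G1. In S and G2/M calls of tumour 4 it was 1940 and 2036 CPM, below the sum of the 8 neutrophil markers there (3202 and 6035 CPM). In tumour 4, 245 of the 261 progenitor-like cells fell into 1 cluster that held no cell of another tumour, led by the histone genes Hist1h3c and Hist1h2ae, so this class rests on different clusters in tumour 4 and in tumours 1 to 3. Phase calls came from scores over 42 S-phase and 51 G2/M genes, none of them a member. A call is a cut through a continuous score, and 1173 of the 3361 progenitor-like cells (34.9%) lay within 0.1 of a cut.

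Several properties of the libraries moved with phase or tumour. Cells called G2/M had more UMIs than cells called S, and those more than cells called G1, with medians in tumour 2 of 10973, 9039 and 6824. Tumour 1 held 224 of the 261 cells of a progenitor-like cluster with a median of 33866 UMIs. Tumour 4 was rich in immune cells, and only 16 of its progenitor-like cells were called G1, with 87117 UMIs in all. A listed gene with 0 UMIs in those 16 cells could have a level of up to 34.4 CPM (3 counts, counting error only), whereas the same limit was between 1.06 and 3.91 CPM in tumours 1 to 3. The 8 neutrophil markers summed to 826, 3202 and 6035 CPM in the progenitor-like cells of tumour 4 called G1, S and G2/M, and to at most 124 CPM in any phase of the other tumours. The part of these properties in the results was not tested except where a value without a tumour or cluster is given.

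**Figure D1:**
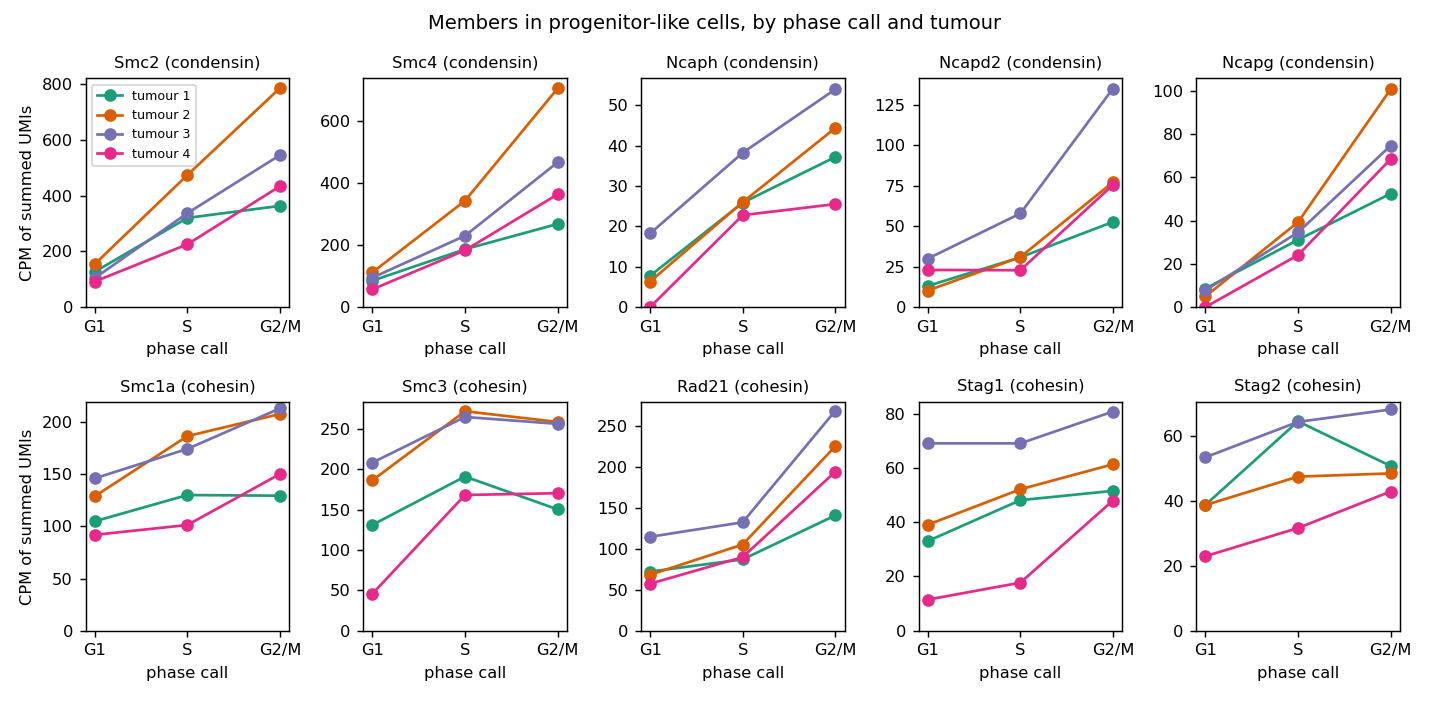
Level of each member (CPM of summed UMIs, vertical axis from 0) in progenitor-like cells called G1, S and G2/M (horizontal axis), with 1 line per tumour. The 5 condensin genes are in the top row and the 5 cohesin genes below. All 10 members had higher levels at G2/M than at G1 in all 4 tumours, Ncaph in tumour 4 from 0 UMIs at G1. Among the cohesin genes Rad21 rose most steeply from S to G2/M.

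The first comparison asked how the members differed between progenitor-like cells called S and those called G1. Of the 5 condensin genes 4 were higher in S. Smc2, Smc4, Ncapg and Ncaph passed the test (limma on log2(CPM + 10), tumour as a block, Benjamini-Hochberg adjusted p under 0.05), by 1.16 to 1.49 on that log2 scale. Ncapd2 and the 5 cohesin genes did not pass with all 4 tumours, although each of these 6 except Stag1 had an unadjusted limma p under 0.05. The 4 called members stand against 2.39% of 8652 genes tested that were called higher (207 genes). Another 0.439% were called lower (38 genes), 2.83% in either direction. This background, like those below, leaves out the 2151 genes used for clustering, phase calls or markers. Members and the related genes listed below had been kept out of the clustering genes beforehand, so none of them was left out for that reason. How this moved the shares was not tested.

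Smc2 stood at 127, 154, 104 and 91.8 CPM in G1 calls of tumours 1 to 4 and at 320.1, 474, 337 and 225 CPM in S calls. The lowest S value lay above the highest G1 value, and the difference was 1.41 ± 0.09 (SE; limma adjusted p = 0.00117; higher in 4 of 4 tumours). Smc4 stood at 85.2, 112, 95.1 and 57.4 CPM in G1 and at 187, 344, 230.4 and 183 CPM in S. Again the groups did not overlap, with a difference of 1.32 ± 0.11 (SE; limma adjusted p = 0.00399). Both ATPase genes of condensin were higher in S in 4 of 4 tumours.

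Ncapg, a repeat-protein subunit, stood at 8.56, 4.93, 7.82 and 0 CPM in G1 calls and at 31.1, 39.3, 34.5 and 24.0 CPM in S calls. These G1 levels rest on 21, 14, 6 and 0 UMIs, and the difference was 1.49 ± 0.18 (SE; limma adjusted p = 0.00863). Because 10 CPM were added before the log, such a value understates a change between levels this low. A 0 that missed transcripts would overstate it. Ncaph, the kleisin, stood at 7.75, 6.33, 18.2 and 0 CPM in G1 and at 25.9, 26.0, 38.2 and 22.8 CPM in S. The difference was 1.16 ± 0.20 (SE; limma adjusted p = 0.0255), with tumours 1 to 3 higher in S. In tumour 4 the 0 UMIs of Ncapg and of Ncaph in G1 allow up to 34.4 CPM, above their S levels of 24.0 and 22.8 CPM. The direction in tumour 4 is therefore not settled for either gene.

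Ncapd2 was the condensin gene that did not pass. Its G1 levels of 13.1, 10.2, 29.96 and 23.0 CPM overlapped the S levels of 30.8, 30.9, 57.9 and 22.8 CPM. Tumours 1 to 3 were higher in S and tumour 4, with 2 UMIs in G1, was level (0.65 ± 0.20 SE; limma adjusted p = 0.161).

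The cohesin genes had positive differences between 0.29 and 0.76, none of which passed. Smc3 stood at 131, 186, 208 and 45.9 CPM in G1 and at 191, 272, 265 and 168 CPM in S. It was higher in S in 4 of 4 tumours, yet it did not pass (0.76 ± 0.20 SE; limma adjusted p = 0.115), the G1 value of tumour 4 resting on 4 UMIs. Smc1a went from 105, 129, 146 and 91.8 CPM to 129.9, 186, 174 and 101 CPM (0.29 ± 0.10 SE; limma adjusted p = 0.200). Rad21 went from 72.2, 68.3, 115 and 57.4 CPM to 87.1, 105, 132 and 89.8 CPM (0.39 ± 0.12 SE; limma adjusted p = 0.15). Both overlapped between the phases while each tumour on its own was higher in S. The differences of Stag1 (0.29 ± 0.14 SE) and Stag2 (0.35 ± 0.14 SE) had limma adjusted p-values of 0.389 and 0.273.

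Which members passed depended on the tumours entered. Without tumour 4, and so without its 16 cells, all 5 condensin genes and 4 of 5 cohesin genes (Smc1a, Smc3, Rad21 and Stag2) were called higher, with differences of 0.33 to 0.45 for the 4 cohesin genes. In that fit 17% of 8706 genes were called. The count of all genes called was 53 (0.634%), 25 (0.277%) and 3 (0.0343%) without tumours 1, 2 and 3, and the condensin genes called were 3, 2 and 1 (Smc2 alone without tumour 3). Over the 4 tumours the median difference was 1.32 for the condensin genes and 0.35 for the cohesin genes, beside 0.06 for all genes tested. In a fit without the tumour block Smc2 kept its call, and Smc4, Ncapg and Ncaph had limma adjusted p-values of 0.0687, 0.0558 and 0.321. With a pseudocount of 1 in place of 10, Ncapg and Ncaph did not pass.

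**Figure D2:**
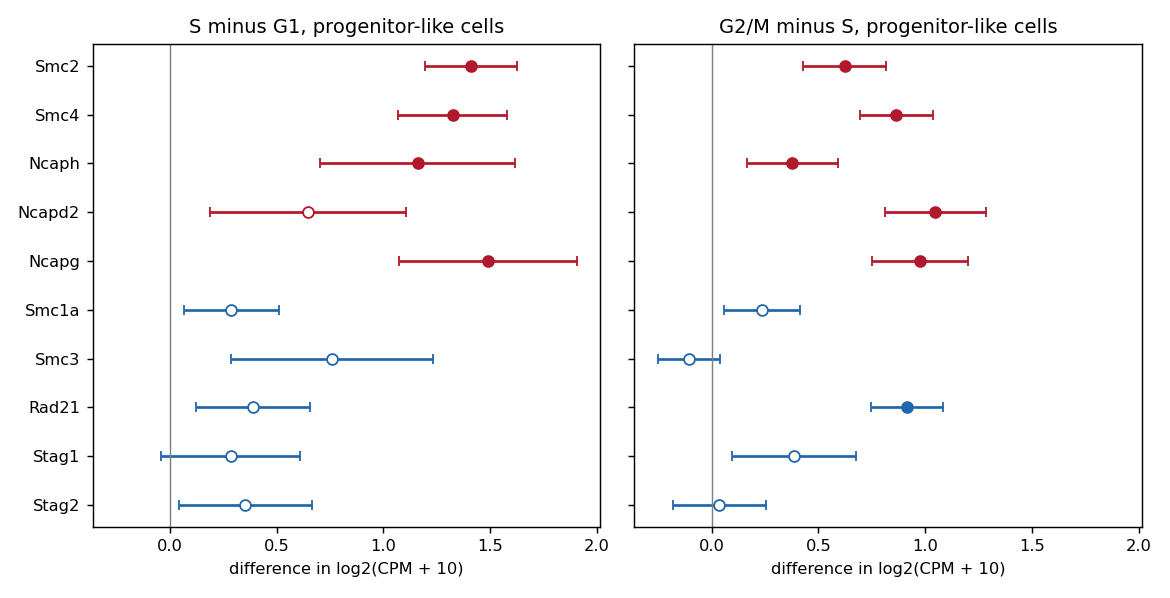
Difference in log2(CPM + 10) between phase calls of progenitor-like cells for each member, S minus G1 at left and G2/M minus S at right, with 95% confidence intervals from limma over 4 tumours. Red marks condensin and blue cohesin, filled points have an adjusted p under 0.05, and Rad21 was the cohesin gene called at right.

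The second comparison set G2/M calls against S calls, and it shares the S cells with the first. All 5 condensin genes were higher in G2/M, and of the cohesin genes Rad21 was. These 6 of 10 members stand against 2.68% of 9216 genes tested that were called higher (247 genes) and 2.20% called lower (203 genes), 4.88% in either direction.

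Smc4 rose to 269, 706, 468 and 364 CPM in G2/M calls of tumours 1 to 4, a difference from S of 0.87 ± 0.08 (SE; limma adjusted p = 2.1e-05). Smc2 rose to 363, 786, 545 and 434 CPM (0.62 ± 0.09 SE; limma adjusted p = 0.00112). Tumour 2 was highest and tumour 1 lowest for both. Ncapd2, which had not passed in the first comparison, reached 52.6, 77.2, 135 and 75.5 CPM and had the largest difference of the 10 members here (1.05 ± 0.11 SE; limma adjusted p = 7.04e-05). Ncapg reached 52.4, 101, 74.6 and 68.4 CPM, all above the highest S value (0.98 ± 0.10 SE; limma adjusted p = 8.61e-05). Ncaph reached 37.2, 44.4, 54.0 and 25.5 CPM, and its ranges in S and G2/M overlapped. Its difference of 0.38 ± 0.10 (SE; limma adjusted p = 0.0436) was the smallest of the condensin genes, and it kept the call under 6 of 14 alternative settings.

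Rad21 reached 141, 225, 268 and 194 CPM in G2/M calls. Every tumour was higher than in S, and the lowest G2/M value lay above the highest S value (0.92 ± 0.08 SE; limma adjusted p = 1.32e-05). Rad21 encodes the subunit that separase cleaves at anaphase. Its partners in the ring did not pass. Smc3 stood at 150.4, 259, 256 and 170.5 CPM, with 3 of 4 tumours below their S level (-0.11 ± 0.07 SE; 95% interval -0.25 to 0.04; limma adjusted p = 0.424). Smc1a stood at 129, 207, 213 and 150.0 CPM (0.24 ± 0.08 SE; limma adjusted p = 0.128). Without tumour 1 its difference was 0.32 and passed, with an adjusted p of 0.0443 from limma.

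Stag1 stood at 51.5, 61.3, 80.8 and 48.0 CPM in G2/M calls (0.39 ± 0.13 SE; limma adjusted p = 0.129), higher than in S in 4 of 4 tumours. For Stag2 the levels were 50.7, 48.4, 68.1 and 42.9 CPM (0.04 ± 0.10 SE; 95% interval -0.18 to 0.26; limma adjusted p = 0.883). Neither passed. The median difference over the 5 condensin genes was 0.87, that over the 5 cohesin genes 0.24, and that over all genes tested -0.02.

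Leaving out tumour 1, 2 or 3 kept 4 condensin genes (all except Ncaph) and Rad21 among the calls, when 5.16%, 1.33% and 1.62% of all genes tested were called. Without tumours 2 and 3 these were 127 and 151 genes, and without tumour 4 they were 1105 (11.9%), with 5 condensin genes and Rad21 called. In a fit without the tumour block none of the 6 members passed, with a lowest limma adjusted p of 0.339, for Ncapg. Without the progenitor-like cluster of very high UMI counts, chosen after seeing the data, 795 genes were called, and the same 6 members with Smc1a.

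Whether the second step differed from the first was tested directly, as a comparison added after the data had been seen. None of the 10 members was called in that test (limma; 69 of 9232 genes called, 0.747%, with 0.0758% higher and 0.672% lower). Smc2, Ncaph, Smc3 and Rad21 had an unadjusted limma p under 0.05, and no other tool was run. The second step minus the first was -0.79 ± 0.22 for Smc2 (SE; limma adjusted p = 0.183) and 0.53 ± 0.20 for Rad21 (SE; limma adjusted p = 0.443). The same difference was -0.78 ± 0.28 for Ncaph (limma adjusted p = 0.371) and -0.86 ± 0.36 for Smc3 (limma adjusted p = 0.501). Without tumour 4, Smc2 and Smc3 passed with negative values, when 4.69% of 9312 genes were called. No member passed without tumour 1, 2 or 3, when 0.115%, 0.0314% and 0.0322% of genes were called.

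A finer cut through the scores gave 5 ranges of progenitor-like cells, described without a test. The ranges were G1 calls, S calls with a G2/M score below 0, S calls with both scores above 0, G2/M calls with both above 0, and G2/M calls with an S score below 0. The summed level of the 5 condensin genes was 239 ± 48.8, 470.2 ± 149.6, 865 ± 297, 1265 ± 381 and 875 ± 464 CPM in that order (SD, n = 4). In all 4 tumours it was highest in G2/M calls with both scores above 0. For the 5 cohesin genes the sums were 416 ± 151, 507 ± 123, 639 ± 171, 733 ± 158 and 585 ± 129.9 CPM. They too were highest in that range in each tumour, over a narrower span. Neighbouring ranges overlapped between tumours throughout.

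**Figure D3:**
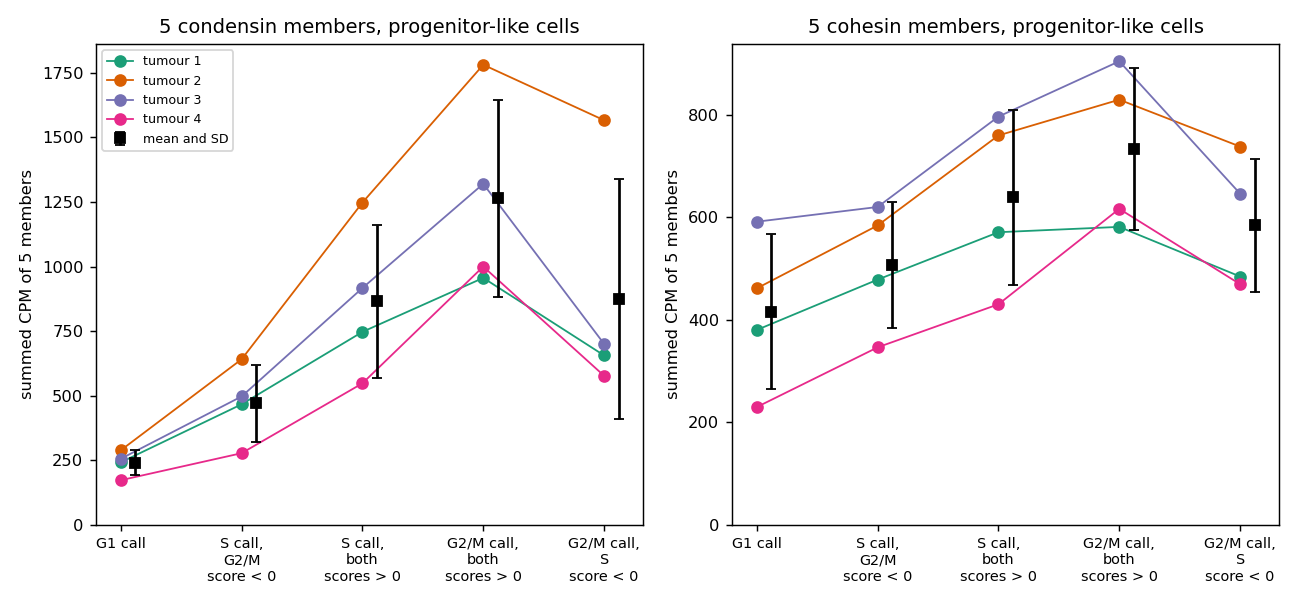
Summed level (CPM, vertical axis from 0, with different scales) of the 5 condensin and the 5 cohesin genes in 5 ranges of phase score among progenitor-like cells, with 1 line per tumour and black squares for the mean and SD of 4 tumours. Both sums were highest where a G2/M call came with both scores above 0, at 1265 and 733 CPM on average.

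Within these ranges the members differed in shape. Rad21 averaged 78.1, 81.7, 124, 209 and 187 CPM, so that it was nearly flat between the first pair of ranges. Smc3 averaged 143, 205, 248, 222 and 168 CPM and its mean was highest in S calls with both scores above 0. Ncapg, at 5.33 CPM in G1, averaged 16.3, 48.9, 80.1 and 47.5 CPM in the other ranges. The last range was thin in tumours 3 and 4, where Ncapg rests on 5 and 2 UMIs.

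Of 31 other genes listed for these pathways, 28 were tested between S and G1 calls and 11 were higher, none lower, where 2.39% of all genes tested were called higher. The list covers condensin II, cohesin loaders and releasers, cohesion establishment, cleavage, Ctcf and the Smc5/6 complex. Of the 11, Esco2, Cdca5, Sgol2, Ncapg2 and Espl1 reached the detection filter of 5% of cells in S calls only, so they were tested because they were high there and their calls lend no weight to the count. Among the 22 genes that reached it in both phases, 6 were called. Esco2, the acetyltransferase that locks cohesin on replicated DNA, rose by 1.52 ± 0.31 (SE; limma adjusted p = 0.0442). Cdca5, also called sororin and a guard against cohesin release, rose by 1.64 ± 0.24 (SE; limma adjusted p = 0.0183). Dscc1, part of a clamp loader that acts at the replication fork, rose by 1.59 ± 0.18 (SE; limma adjusted p = 0.00659). Sgol1 and Sgol2, the shugoshins that shield cohesin at centromeres, and Chtf18, a partner of Dscc1, were also higher. Ncapd3 and Ncapg2 of condensin II, the separase gene Espl1, and Smc6 and Nsmce4a of the Smc5/6 complex made up the rest. None of the 5 genes for cohesin loading and release (Nipbl, Mau2, Wapal, Pds5a and Pds5b) passed. Without tumours 1, 2 and 3 the calls among the 28 were 1, 0 and 0, when 0.634%, 0.277% and 0.0343% of all genes were called. Without tumour 4 they were 16 higher and 1 lower, when 17% of all genes were called.

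Between G2/M and S calls, 7 of 27 such genes were higher and 1 was lower, where 2.68% of all genes tested were called higher and 2.20% lower. Without tumour 2 and without tumour 3, when 1.33% and 1.62% of genes were called, 4 were higher (Sgol1, Sgol2, Espl1 and Pttg1) and Dscc1 was lower. Pttg1, which encodes securin, the inhibitor of separase, had the largest difference, from 88.7, 64.1, 104 and 63.3 CPM to 253, 219, 354 and 174 CPM (1.51 ± 0.08 SE; limma adjusted p = 2.16e-07). Espl1 rose by 0.79 ± 0.10 (SE; limma adjusted p = 0.00054), so securin, separase and the separase target Rad21 were all among the calls. Sgol2 rose by 1.47 ± 0.10 and Sgol1 by 0.96 ± 0.12 (SE; limma adjusted p = 3.42e-06 and 0.000383). Esco2, Cdca5 and Ctcf, the loop anchor protein, were higher by 0.54, 0.40 and 0.38 (limma adjusted p = 0.0116, 0.0494 and 0.0125), and all 3 lost the call without tumour 2 and without tumour 3. Dscc1 fell by 0.68 on the log2 scale (limma adjusted p = 0.00316), from 32.4, 51.1, 35.8 and 29.1 CPM to 12.6, 23.3, 27.2 and 15.3 CPM. It was lower in each of the 4 tumours. No gene of condensin II passed here, with a median difference of 0.06 over its 3 genes.

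Few UMIs came from the genes of meiotic cohesin. Smc1b and Rad21l are listed in the table of tumour 1 alone, where they had 0 UMIs in progenitor-like cells of each phase, which allows up to 1.22 CPM in G1 calls and 0.305 CPM in G2/M calls. The tables of tumours 2 to 4 list only genes seen in at least 5 cells, so no limit is given there. In progenitor-like cells Stag3, listed in tumours 1, 3 and 4, was measured at or below 1.53 CPM, and Rec8 at or below 11.6 CPM. Both had 0 UMIs in the G1 calls of tumour 4, which allows up to 34.4 CPM there. Rec8 stood at 25.0, 13.0 and 7.33 CPM in neuron-like cells called G1 of tumours 1 to 3, on 15, 36 and 5 UMIs.

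The third comparison held the phase call at G1 and set neuron-like cells against progenitor-like cells in tumours 1 to 3. Tumour 4 had 1 neuron-like cell and could not enter. Smc2 was lower and Smc3 higher in neuron-like cells, and 8 of 10 members did not pass. Ncapg and Ncaph reached the detection filter in progenitor-like cells only. Of 8457 genes tested, 13.6% were called higher and 9.68% lower, 23.3% in either direction, so 2 calls among 10 members lie near the background. Smc2 alone passed without tumour 1 (25.8% of genes called), no member without tumour 2 (11.6%) and Smc3 alone without tumour 3 (18.3%). Each of these fits held 2 tumours, so its calls lean mostly on the variance shared across genes.

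Smc3 stood at 193, 227 and 230.3 CPM in neuron-like cells of tumours 1 to 3 against 131, 186 and 208 CPM in progenitor-like cells. It was higher in 3 of 3 tumours (0.31 ± 0.11 SE; limma adjusted p = 0.0393), and the call held under 4 of 12 alternatives. Smc2 stood at 140.1, 61.9 and 77.7 CPM against 127, 154 and 104 CPM. It was lower in 2 of 3 tumours (-0.48 ± 0.17 SE; limma adjusted p = 0.046), and without tumour 2 the difference was -0.12 (limma adjusted p = 0.729). Smc4, its partner, stood at 103, 109.7 and 93.9 CPM in neuron-like cells, where the difference was 0.07 ± 0.12 (SE; 95% interval -0.19 to 0.33; limma adjusted p = 0.749).

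Rad21 and Smc1a did not pass. Rad21 stood at 86.7, 77.8 and 128 CPM and Smc1a at 100.04, 128 and 132 CPM. Their differences were 0.18 ± 0.13 and -0.07 ± 0.11 (SE; limma adjusted p = 0.326 and 0.728). Of 23 other pathway genes tested, Mau2, part of the cohesin loader, was higher (0.52 ± 0.14 SE; limma adjusted p = 0.0112) and Pttg1 was lower (-0.49 ± 0.16 SE; limma adjusted p = 0.0265). These 2 calls lie below the background of 23.3%, and both were lost without tumour 2.

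Several members were lower in myeloid-like cells. A planned comparison of myeloid-like with neuron-like cells had 2 tumours with enough of both and was not run. The difference between myeloid-like and progenitor-like cells called G1, in tumours 1, 2 and 4, was tested in its place and was chosen after seeing the data. All genes tested had a median difference of -0.38. The tests were made against 0 without subtracting that shift, so each member's difference is to be set beside it. Smc2, Smc4, Smc1a, Smc3 and Rad21 were lower in myeloid-like cells, 5 of 10 members, where 21.7% of 8734 genes were called lower and 5.61% higher, 27.3% in all.

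Smc2 stood at 13.0, 11.8 and 19.2 CPM in myeloid-like cells of tumours 1, 2 and 4, against 127, 154 and 91.8 CPM in progenitor-like cells. Its difference of -2.43 ± 0.29 (SE; limma adjusted p = 0.000812) was the largest of the 10 members, and it passed under all 12 alternatives. The 12 include the fits without 1 tumour, each of 2 tumours, which lend little weight, and the calls of the one without tumour 4 are not read. Smc4 stood at 24.7, 34.1 and 27.8 CPM (-1.25 ± 0.26 SE; limma adjusted p = 0.00827). Smc1a stood at 31.8, 39.3 and 53.7 CPM (-1.21 ± 0.25 SE; limma adjusted p = 0.00852), and it too passed under all 12. Smc3 stood at 34.2, 40.6 and 39.8 CPM (-1.27 ± 0.35 SE; limma adjusted p = 0.0255), where the progenitor-like value of tumour 4, 45.9 CPM, was close to them. Rad21 stood at 31.8, 28.8 and 33.3 CPM (-0.87 ± 0.25 SE; limma adjusted p = 0.0322). Without tumour 1 (17% of genes called) or without tumour 2 (14.4%), Smc4, Smc3 and Rad21 lost their calls. Without tumour 4, 65.2% of all genes were called in a fit of 2 tumours, so no member call is read from it. The 13 myeloid markers summed to 677 CPM in the progenitor-like cells of tumour 4 called G1, against 26.1 to 218 CPM in the other tumours, and their part in the result was not tested.

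The alternative subunits Stag1 and Stag2 were not called. Stag1 stood at 25.9, 22.3 and 29.3 CPM in myeloid-like cells and Stag2 at 38.9, 22.3 and 38.3 CPM. Their differences from progenitor-like cells were 0.00 ± 0.35 and -0.01 ± 0.31 (SE; 95% intervals -0.78 to 0.79 and -0.71 to 0.69), intervals that still hold a fall as large as that of the median gene. Without tumour 4, in the fit of 2 tumours whose calls are not read, the Stag1 difference was -0.43 (limma adjusted p = 0.098). Ncapd2, Ncapg and Ncaph, which reached the detection filter in progenitor-like cells only, were at 4.71 CPM or less in myeloid-like cells and were not called (limma adjusted p = 0.0556, 0.401 and 0.865). Of 25 other pathway genes tested, Sgol1, Smc5, Smc6, Nsmce1 and Nsmce2 were lower, 5 genes beside a background of 21.7% called lower. Sgol1 reached the detection filter in progenitor-like cells only. None of the 5 was called without tumour 1 or without tumour 2. Without tumour 4 the calls were 19 of 23, but 65.2% of all genes were called there, and these calls are not read either.

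**Figure D4:**
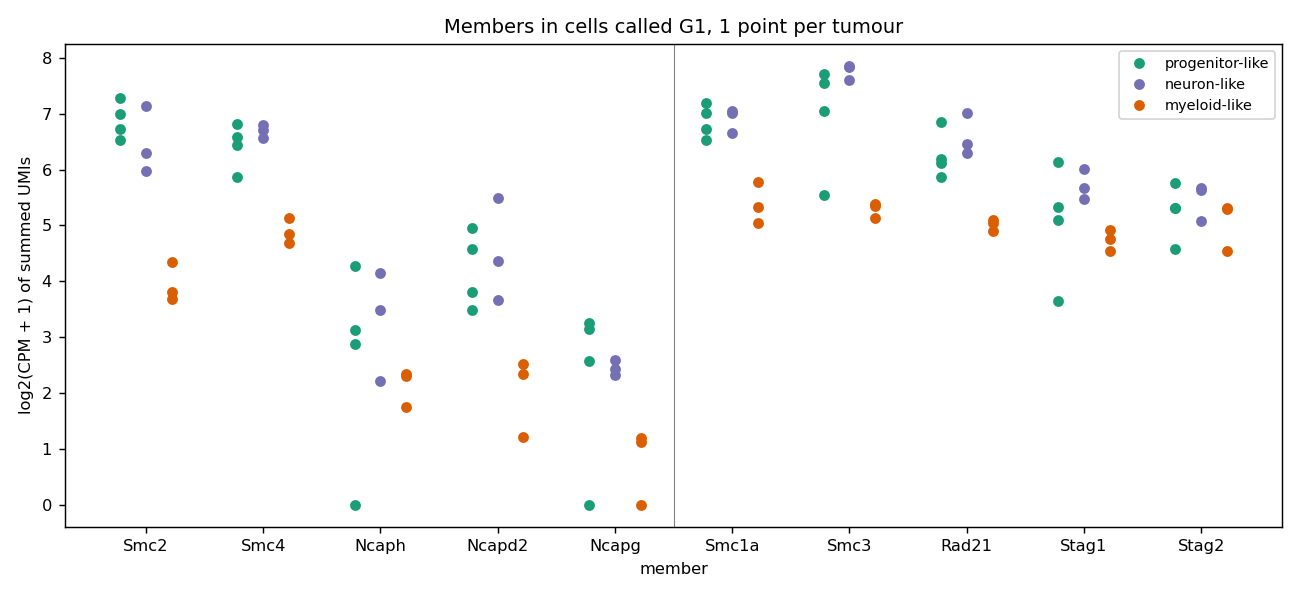
Level of each member on a log2(CPM + 1) axis in cells called G1, with 1 point per tumour for progenitor-like (4 tumours), neuron-like (3 tumours) and myeloid-like cells (3 tumours), condensin at left and cohesin at right. Smc2 was lowest in myeloid-like cells, at 11.8 to 19.2 CPM, while the points of Stag2 overlapped between the 3 classes.

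Summed levels among G1 calls are given for each class in the tumours that had at least 10 such cells, so means cover different tumours and are not ranked. For condensin the sums were 241, 288, 255 and 172 CPM in progenitor-like cells of tumours 1 to 4 and 277, 199 and 230.3 CPM in neuron-like cells of tumours 1 to 3. Oligodendrocyte lineage-like cells of tumours 2 to 4 had 131, 223 and 174 CPM. Myeloid-like cells of tumours 1, 2 and 4 had 46.0, 51.1 and 56.4 CPM, below each of these values. For cohesin the sums were 380.1, 461, 591 and 229.6 CPM in progenitor-like cells, the last resting on 20 UMIs, and 472, 516 and 603 CPM in neuron-like cells. Neuron-like cells were above progenitor-like cells of the same tumour in 3 of 3 tumours. Oligodendrocyte lineage-like cells had 369.9, 394 and 446 CPM, below progenitor-like cells in tumours 2 and 3 and above them in tumour 4, and myeloid-like cells had 163, 153 and 194 CPM. Dendritic cell-like cells of tumours 2 and 4 had 68.1 and 77.8 CPM for condensin and 187 and 199 CPM for cohesin. Muscle-like cells of tumour 1 had 126 and 295 CPM, and astrocyte-like cells of tumour 4 had 99.4 and 181 CPM. Tumour 4 added neutrophil-like cells at 73.3 CPM for condensin and 347 CPM for cohesin, and T and NK cell-like cells at 146 and 248 CPM. Smc1a alone reached 144 CPM in the neutrophil-like cells, against 53.7 CPM in the myeloid-like cells of the same tumour, each from 1 library.

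Stag1 and Stag2 were set against each other as the share of Stag1 among the UMIs of both. In progenitor-like cells called G2/M the share was 50.4%, 55.9%, 54.2% and 52.8% in tumours 1 to 4. The exact 95% binomial interval of tumour 2, on 809 UMIs, ran from 52.4% to 59.3%, and the other 3 reached to or below 50%. In S calls the shares were 42.7%, 52.3%, 51.8% and 35.9%, tumour 1 lying below an even share with an interval of 37.4% to 48.1% on 344 UMIs. Progenitor-like cells called G1 had 46.0%, 50.2%, 56.4% and 33.3% in tumours 1 to 4, the last on 3 UMIs, and all 4 intervals included an even share. Neuron-like cells called G1 had 47.3%, 60.3% and 55.8% in tumours 1 to 3. Myeloid-like cells called G1 had 40%, 50% and 43.4% in tumours 1, 2 and 4. The neuron-like and myeloid-like ranges overlapped, with means of 54.5 ± 6.60% and 44.5 ± 5.09% (SD, n = 3). The interval of tumour 2 lay above an even share in neuron-like cells (53.6% to 66.6%), and that of tumour 4 below it in myeloid-like cells (37.8% to 49.0%). Intervals cover counting error only, and no test was made.

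**Figure D5:**
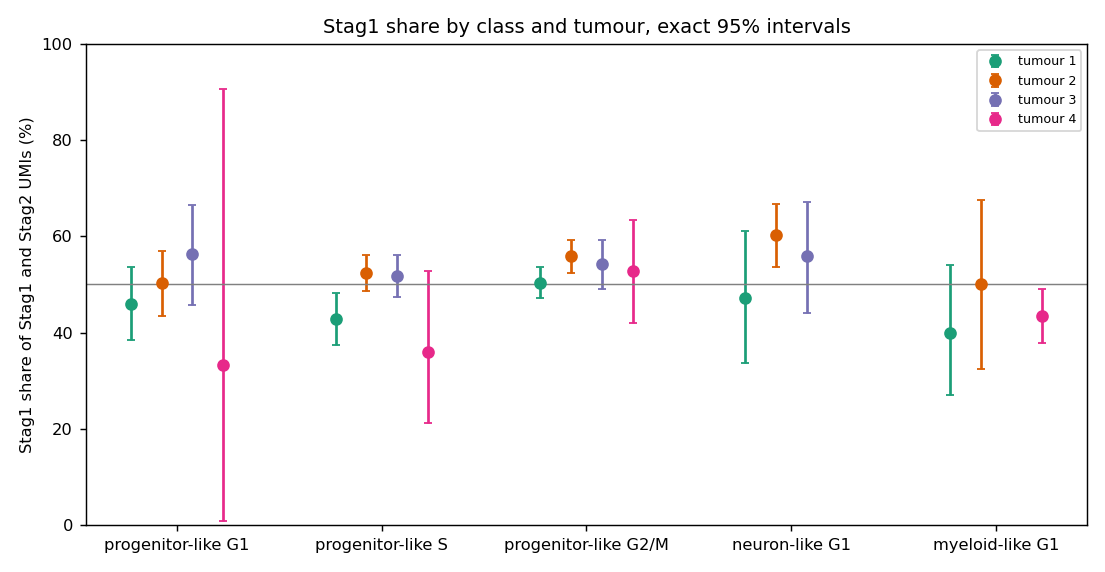
Share of Stag1 among Stag1 and Stag2 UMIs (percent, vertical axis) by class and phase call, with 1 point per tumour and exact 95% binomial intervals. Most intervals include an even share, and in progenitor-like cells called G2/M the 4 shares lay between 50.4% and 55.9%.

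The genes whose levels followed each member most closely were found over 49 sums of a tumour, class and phase call, among 7709 genes. These points share libraries and depth, and the correlations are given as descriptions. The genes searched included those behind the phase calls, among them Cks1b and Cenpf. Because the points are split by these calls, a high correlation with such a gene is partly built in. Smc2 was most like 2810417H13Rik (Pearson r = 0.94), Cks1b and Ran, and Smc4 was most like Fbxo5 (r = 0.92). Ncapg followed Spc25 (r = 0.91), a kinetochore gene, Ncaph followed Kif22 (r = 0.87), a chromosome-arm kinesin, and Ncapd2 followed Cenpf (r = 0.87), a kinetochore gene. Smc3 followed Tubg1 (r = 0.90), Rad21 followed Cks1b (r = 0.88) and Smc1a followed Sf3b2 (r = 0.81). Stag1 was most like Brpf1 (r = 0.78) and Stag2 most like Stag1 (r = 0.73), the lowest leading value of the 10 members. Among the members the closest pair was Smc2 and Smc4 (r = 0.89), and Rad21 followed Smc2 (r = 0.85).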

How the data were processed

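Single-cell RNA was measured in 4 tumour libraries. Cell Ranger, Seurat and mm10 are named per the submitters' processing notes, and versions are not given in the sources used here. As deposited, values are log2 of (UMI count divided by a cell's size factor, plus 1), as the values themselves show, and UMI counts were recovered from them as whole multiples (largest deviation from whole 6.59e-11). The authors' cells all passed a check for at least 500 genes and at most 10% mitochondrial UMIs (0 of 6509 removed). A doublet caller marked 21 cells (0.323%), too few to count as having worked, and 6488 cells were analysed. Pairs of libraries shared at most 7 barcodes.

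Cells were clustered with scanpy 1.11.5 and leidenalg 0.10.2 (1992 variable genes, 30 components, 15 neighbours) and named from markers. UMIs were summed per tumour, class and phase call (at least 10 cells, 3 tumours), and genes seen in at least 5% of cells of either group were tested on log2(CPM + 10) with limma 3.58.1 and statmod 1.5.0 in R 4.3.3 (trend and robust variance), with tumour as a block because both groups come from the same tumours. P-values were adjusted over all genes tested, without the 2151 genes used for clustering, phase calls or markers. Members and the related list had been kept out of the clustering genes, so none of them was left out for that reason. The test was checked on simulated data in which every group had 1000000 UMIs. The progenitor-like G1 calls of tumour 4 had 87117, so the check does not cover a group that thin. Only genes of higher level were changed in it, so it does not cover genes as low as Ncapg, Ncaph and Ncapd2 in G1 calls. With 3 or 4 tumours, small p-values lean on the variance shared across genes. Sums, shares and exact intervals used Python 3.11.15 and scipy 1.17.1.

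The members and gene lists were chosen with earlier results of these data known. All 10 members were named, every gene of the related list could be named, and the 3 most alike genes per member were named by Pearson correlation. Alternatives were a pseudocount of 1, the mean deposited log2 value, cells thinned to 4900 UMIs (1258 shallower cells left out), no detection filter, no block, other resolutions, kept doublets, a phase cut of 0.1, leaving out each tumour, and leaving out clusters with a median above 20000 UMIs.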

Additional observations from a re-analysis of the deposited data

How the results depend on the processing

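Over the alternatives, 539 member values kept their direction and side of the threshold, 54 lost and 22 gained a call, and 30 changed sign, none of them called. Between S and G1 calls the count of genes called, 245, was 35 with a pseudocount of 1, 396 on mean deposited log2 values, 18 without the tumour block and 3 to 1479 leaving out 1 tumour. Without the block Smc2 alone was called among the members (adjusted p of Smc4 0.0687), and with a pseudocount of 1 Ncaph and Ncapg lost their calls. Between G2/M and S the count, 450, was 247 with a pseudocount of 1, 2 without the block, where all 6 member calls were lost, 805 at resolution 0.5, 795 without clusters of very high UMI counts and 127 to 1105 leaving out 1 tumour. For neuron-like cells the count, 1971, was 1188 on mean log2 values, 1121 thinned, 437 without the block, 655 at resolution 2 and 1043 to 2075 leaving out 1 tumour. For myeloid-like cells, 2383, it was 1356 to 5652 leaving out 1 tumour. For the difference of steps, 69, it was 21 with a pseudocount of 1, 0 without the block (182 genes at an unadjusted limma p under 0.05), 112 at resolution 0.5, 112 with doublets kept, 141 at a phase cut of 0.1, 145 without clusters of very high UMI counts and 3 to 437 leaving out 1 tumour. A phase cut of 0.1 leaves G1 calls as they were, so it is no alternative for the neuron-like and myeloid-like comparisons. The myeloid-like condensin sum was 44.3 CPM at resolution 2. The cause of these shifts was not tested.

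Signs changed as follows, with the range over leaving out 1 tumour in brackets. Between G2/M and S, Stag2 was -0.0081 thinned (-0.066 to 0.15). In neuron-like cells Ncaph was 0.033 on mean log2 values, 0.044 at resolution 2 and 0.048 without clusters of very high UMI counts (-0.37 to 0.16). Stag2 there was 0.048 on mean log2 values, 0.041 thinned, 0.025 and 0.28 at resolutions 0.5 and 2, and 0.062 with doublets kept (-0.13 to 0.088). Smc4 ranged from -0.024 to 0.12 leaving out 1 tumour, and Smc1a was 0.092 at resolution 2. In myeloid-like cells Ncaph was 0.13 with a pseudocount of 1, and Stag2 was 0.064 on mean log2 values and 0.062 thinned (-0.29 to 0.28). Stag1 there was -0.11 with doublets kept (-0.43 to 0.31). In the difference of steps Smc4 was 0.0059 and Ncapg 0.087 on mean log2 values. Stag1 was -0.33 thinned and -0.050 at resolution 0.5 (-0.097 to 0.25), and Smc1a was 0.012 with doublets kept (-0.20 to 0.047).

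Depth limits the lowest members: Ncapg and Ncaph had 0 UMIs in the 16 G1 cells of tumour 4.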

Other observations

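Several other classes had at least 10 cells called G1 and 10 called G2/M in 1 tumour alone, which gives values and no test. Summed condensin in muscle-like cells of tumour 1 was 126 CPM in 55 cells called G1 (exact 95% Poisson interval 104 to 150.4) and 828 CPM in 11 cells called G2/M (727 to 938). In T and NK cell-like cells of tumour 4 it was 146 CPM in 116 G1 cells (117 to 179.6) and 1037 CPM in 10 G2/M cells (836 to 1272). In oligodendrocyte lineage-like cells of tumour 4 it was 174 CPM in 12 G1 cells (110.3 to 261) and 976 CPM in 10 G2/M cells (860.4 to 1102). Neutrophil-like cells of tumour 4 gave 73.3 CPM in 313 G1 cells (59.5 to 89.3) and 116 CPM in 20 G2/M cells (58.1 to 208), where the intervals overlap. Summed cohesin in the same neutrophil-like cells was 347 and 339 CPM, and in T and NK cell-like cells 248 and 507 CPM. The intervals cover counting error only, and mixed droplets were not excluded.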
